A study of Mus musculus with 4 samples.

Results

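Cycling cells with an intermediate level of Myog were 243 of the 5481 kept cells (4.43%, exact Clopper-Pearson 95% interval 3.90 to 5.01) in a culture of mouse muscle stem cells that had been sorted for a bright MyoD reporter. They were chosen by their own transcript levels, in unique molecular identifiers (UMIs) of a gene per 1000000 UMIs of the cell (CPM). A member had at least 1000 CPM of the nuclear RNA Malat1, at least 150 CPM of Mki67 and Top2a together, and at least 400 but under 1500 CPM of Myog. Their cycling neighbours with Myog under 400 CPM numbered 1356. Another 277 cells had Myog in the same range as the members but under 150 CPM of Mki67 and Top2a together. These are called cycling Myog-low and non-cycling Myog-intermediate cells below. Non-cycling means only that a cell was under this threshold, which does not show exit from the cycle.

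The cells came from skeletal muscle of mice with the genotype MyoD-KI, were cultured for 5 days in a serum-containing growth medium, and were sorted for high MyoD-tdTomato fluorescence. The sources used here give no age, sex or strain of the animals and do not say how many were pooled. Droplet 3′ libraries are deposited under 4 replicate numbers of this single group, and the cells of low reporter signal were not analysed here. The sort itself uses a reporter of Myod1, so the population is already selected for activity of that gene.

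The 4 files share nearly all of their cell barcodes. They held 5950 to 5974 cell barcodes each, any pair shared 5946 to 5965 of them, and 5944 of 5985 different barcodes were in all 4. They therefore counted as 1 sample, read in 4 files of the same cells. The labels do not say whether the files are repeat libraries or sequencing runs of 1 library. The same direction in all 4 files therefore does not stand for independent repeats. No test between groups of cells was possible, and no p-value is given. Values are given per file or as the mean over files. Intervals are 95% intervals at the mean count of 1 file and cover counting error only. Total UMIs per file ranged from 62627341 to 68898900, of which members held 3526220 to 3879323.

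Muscle stem cells enter differentiation by switching on Myog, which encodes the transcription factor myogenin, after Myod1 has committed them to the muscle lineage. Exit from the cell cycle usually accompanies this switch, through cyclin-dependent kinase inhibitors such as Cdkn1a (p21) and the pocket protein Rb1. Fusion proteins and sarcomere proteins follow. Cells with both Myog and the transcripts of proliferation therefore lie at the meeting of these programmes.

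The values that chose the members are given as a description. Myog was at 889, 898, 908 and 928 CPM in members, at 80.3 to 82.9 CPM in cycling Myog-low cells, and at 923 to 982 CPM in non-cycling Myog-intermediate cells. Mki67, which encodes the proliferation antigen Ki-67, averaged 359 CPM in members, 367 in cycling Myog-low and 13.9 in non-cycling Myog-intermediate cells. Top2a, which encodes the topoisomerase that untangles replicated DNA, averaged 594, 591 and 15.7 CPM in the same order. Around the lower Myog threshold the nearest cells were at 398 and 404 CPM, and around the upper one at 1491 and 1510 CPM. For Mki67 and Top2a the nearest were at 147 and 151 CPM, and for Malat1 at 858 and 1084 CPM. Nothing in these values marks a gap at any edge of the Myog window: 43 cells lay within 20% below its lower edge and 42 within 20% above its upper edge. Applied to 1 file alone, the rule returned 245 to 258 cells and found 73.3% to 80.7% of the members again. Where members were chosen in 1 pair of files and measured in the other pair, their Myog stood at 899 and 911 CPM.

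The promoters of the genes that define or follow the Myog window are shown because muscle regulatory factors bind the E-box, a motif of the letters CANNTG. Capitals mark matches on either strand in the 250 bases before the RefSeq start (GRCm38.p6). The windows are Myog at chr1:134289754-134290003 on the + strand, Rbm24 at chr13:46418050-46418299 (+), Myh3 at chr11:67078050-67078299 (+) and Acta1 at chr8:123894776-123895025 on the − strand. Each is printed 5′ to 3′ along its gene.
Myog: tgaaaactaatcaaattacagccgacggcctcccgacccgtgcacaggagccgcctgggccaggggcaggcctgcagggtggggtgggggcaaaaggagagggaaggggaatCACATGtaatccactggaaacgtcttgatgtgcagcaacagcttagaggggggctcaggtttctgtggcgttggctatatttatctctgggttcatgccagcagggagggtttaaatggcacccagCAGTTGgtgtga
Rbm24: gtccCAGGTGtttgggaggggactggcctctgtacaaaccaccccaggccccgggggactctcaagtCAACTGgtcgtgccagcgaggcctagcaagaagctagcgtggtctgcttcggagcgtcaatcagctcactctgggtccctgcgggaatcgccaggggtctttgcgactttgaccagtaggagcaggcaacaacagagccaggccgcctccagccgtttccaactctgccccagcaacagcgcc
Myh3: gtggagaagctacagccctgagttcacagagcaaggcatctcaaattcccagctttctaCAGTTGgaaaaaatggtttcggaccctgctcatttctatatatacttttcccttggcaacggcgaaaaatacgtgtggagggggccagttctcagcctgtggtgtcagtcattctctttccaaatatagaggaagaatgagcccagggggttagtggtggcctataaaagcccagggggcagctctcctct
Acta1: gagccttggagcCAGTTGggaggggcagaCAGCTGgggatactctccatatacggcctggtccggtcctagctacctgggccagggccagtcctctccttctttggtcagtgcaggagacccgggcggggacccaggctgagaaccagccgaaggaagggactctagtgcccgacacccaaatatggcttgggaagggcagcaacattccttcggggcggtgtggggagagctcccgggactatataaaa
Myog, Rbm24 and Acta1 each held 2 matches and Myh3 held 1. The closest to a start lay 12 bases before that of Myog. CANNTG is short and common: it was in 66.2% of 32851 RefSeq windows of this length. A match is a description, not a site or a cause.

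Members were 12.6% of the 1931 cycling cells (11.1 to 14.1). Of 520 cells in the Myog window, 46.7% were cycling (42.4 to 51.1), between 59.0% of 2297 Myog-low cells and 15.1% of 2197 Myog-high cells. These shares describe 1 sorted culture and depend on the chosen edges. The median member held 13521 UMIs and 3951 genes per file, the median cycling Myog-low cell 12902 and 3796, and the median non-cycling Myog-intermediate cell 10965 and 3308. Mitochondrial UMIs had medians of 3.48%, 3.32% and 4.02%.

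**Figure D1:**
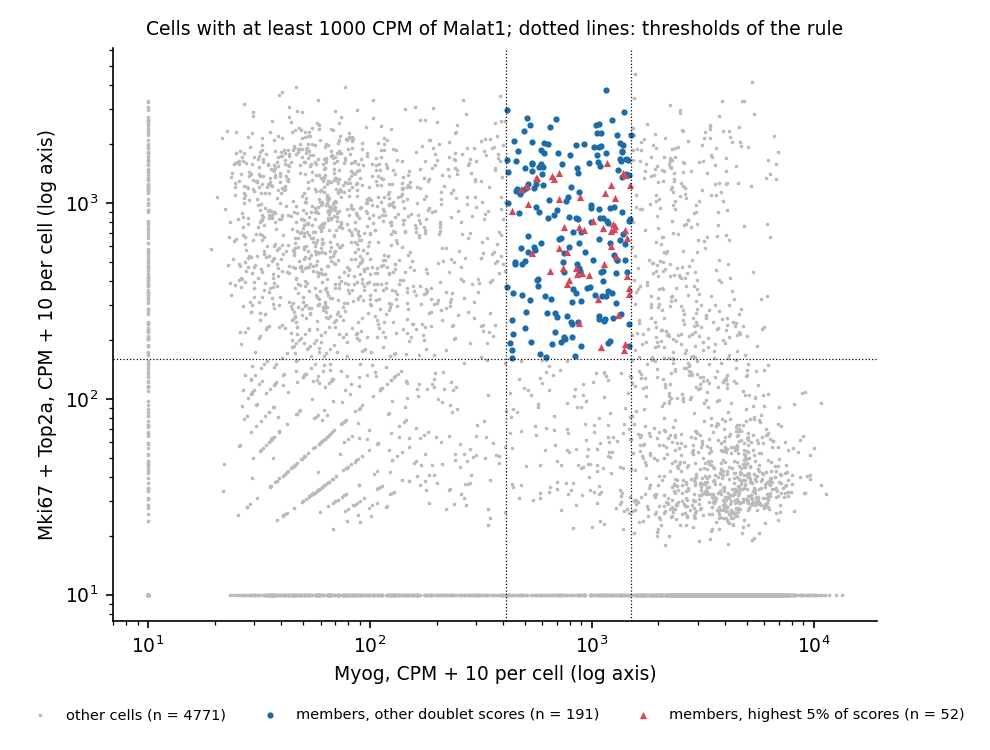
Each point is 1 kept cell with at least 1000 CPM of Malat1, with Myog on the x axis and the sum of Mki67 and Top2a on the y axis, both as CPM + 10 on log axes. Lines mark the thresholds. The 191 members of other doublet scores and the 52 members among the highest 5% of doublet scores lie over the same Myog range, with 4771 other cells around them.

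A droplet that holds a pair of cells at different stages can fall inside this window, so doublet scores were set beside the results. Of the 243 members, 52 were among the 5% of kept cells with the highest doublet scores (21.4%, 16.4 to 27.1). The same held for 39 cycling Myog-low cells (2.88%), 18 non-cycling Myog-intermediate cells (6.5%) and 88 of the 332 cycling cells with 1500 CPM of Myog or more (26.5%). The 52 had a median of 23405 UMIs per file against 12686 for the other 191 members. The muscle actin Acta1 was at 1324 CPM in the 52 and 221 CPM in the 191, and the embryonic myosin Myh3 at 645 and 92.7 CPM. The stem cell factor Pax7 was at 78.3 and 44.1 CPM, and the early regulator Myf5 at 40.1 and 41.9 CPM with overlapping intervals. Rbm24, in contrast, was at 373 CPM in the 52 and 584 CPM in the 191. Whether the 52 are doublets was not tested, since the caller's own threshold marked 0 of 5481 cells. Results are given for all members and for the 191, with the comparison cells trimmed in the same way. The scores were computed from the same counts, so this trim acts on the values that are then compared.

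Markers of cell types other than muscle were low in members. Summed levels were 1.39 CPM for 5 endothelial, 1.2 CPM for 6 immune, 2.53 CPM for 4 glial, 2.59 CPM for 3 adipocyte and 0.73 CPM for 3 red cell markers. The 6 fibroblast markers summed to 128 to 134 CPM in members and 191 to 194 CPM in cycling Myog-low cells, and 4 of the 6 were under 1 CPM in members, 2 of them at 0. The pericyte list summed to 54.4 to 67.0 CPM in members and 101 to 105 CPM in cycling Myog-low cells, most of it from the receptor gene Notch3.

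Against cycling Myog-low cells, members had more transcript of several early muscle genes. They had less of several listed stem and progenitor genes and of the cyclin gene Ccnd1. Rbm24, Cdkn1a, Dll1, Casz1 and the fusion genes Mymk and Mymx were higher, and Myf5, Ccnd1, Spp1 and Mgp were lower, each past 2-fold with and without the highest doublet scores. Of 8283 genes with a mean of at least 10 CPM, 203 (2.45%) were higher and 66 (0.797%) were lower by at least 2-fold with the same direction in all 4 files. Because Myog chose the groups, and both had to pass the same threshold of Mki67 and Top2a, these counts are a description. Dll1, Casz1 and Mymx were under 10 CPM in cycling Myog-low cells. They passed that level only through the members, where they are high, and are likewise a description. Without the highest doublet scores the counts were 182 of 8225 (2.21%) and 143 (1.74%), of which 158 and 62 were also called with all cells. The median log2 ratio over all genes was −0.04 and −0.03.

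Rbm24 encodes an RNA-binding protein that controls splicing in muscle differentiation. It was at 503, 521, 515 and 515 CPM in the 4 files of all members, and at 569, 588, 593 and 585 CPM in the 191. Cycling Myog-low cells had 137 to 143 CPM. Each file of the members was above each file of those cells, by 2.05 on the log2 scale (1.95 to 2.14) for the 191 and by 1.83 for all. Non-cycling Myog-intermediate cells had 617 to 652 CPM, and the log2 ratio of the 191 to them was −0.12. Of 238 members of any doublet score thinned to 5000 UMIs, 89.1% had an Rbm24 UMI. The share was 40.2% in cycling Myog-low and 91.7% in non-cycling Myog-intermediate cells (99.1%, 60.3% and 97.7% unthinned, members first). Rbm24 thus stood in members close to its level in non-cycling Myog-intermediate cells.

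Cdkn1a encodes p21, an inhibitor of cyclin-dependent kinases. It was at 642, 643, 627 and 632 CPM in the 191 members, and at 696 to 727 CPM in all 243. Cycling Myog-low cells had 265 to 279 CPM and non-cycling Myog-intermediate cells 932 to 965 CPM. Members thus lay between the groups without overlap of files, 1.23 (1.14 to 1.31) above the first and −0.57 (−0.66 to −0.48) from the second on the log2 scale. The difference between Myog ranges did not differ beyond counting error between cycling and non-cycling cells, with a difference of log2 ratios of −0.01 (−0.12 to 0.10). Rb1, which encodes the pocket protein that holds E2F factors inactive, was at 105 CPM in the 191, 45.4 CPM in cycling Myog-low and 129 CPM in non-cycling Myog-intermediate cells. Gadd45a, a growth arrest gene, was at 89.5 to 91.1 CPM in the 191 against 23.3 and 168 CPM. In the 191, of 11 measured kinase inhibitors and pocket proteins, Cdkn1a and Rb1 were higher than in cycling Myog-low cells and Cdkn2b was lower past 2-fold. With all members Cdkn1a and Rb1 were higher and none lower. Gadd45a was the 1 of 10 measured p53 targets past 2-fold, while 9 of the 10 were below 0 on the log2 scale (median −0.44).

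**Figure D2:**
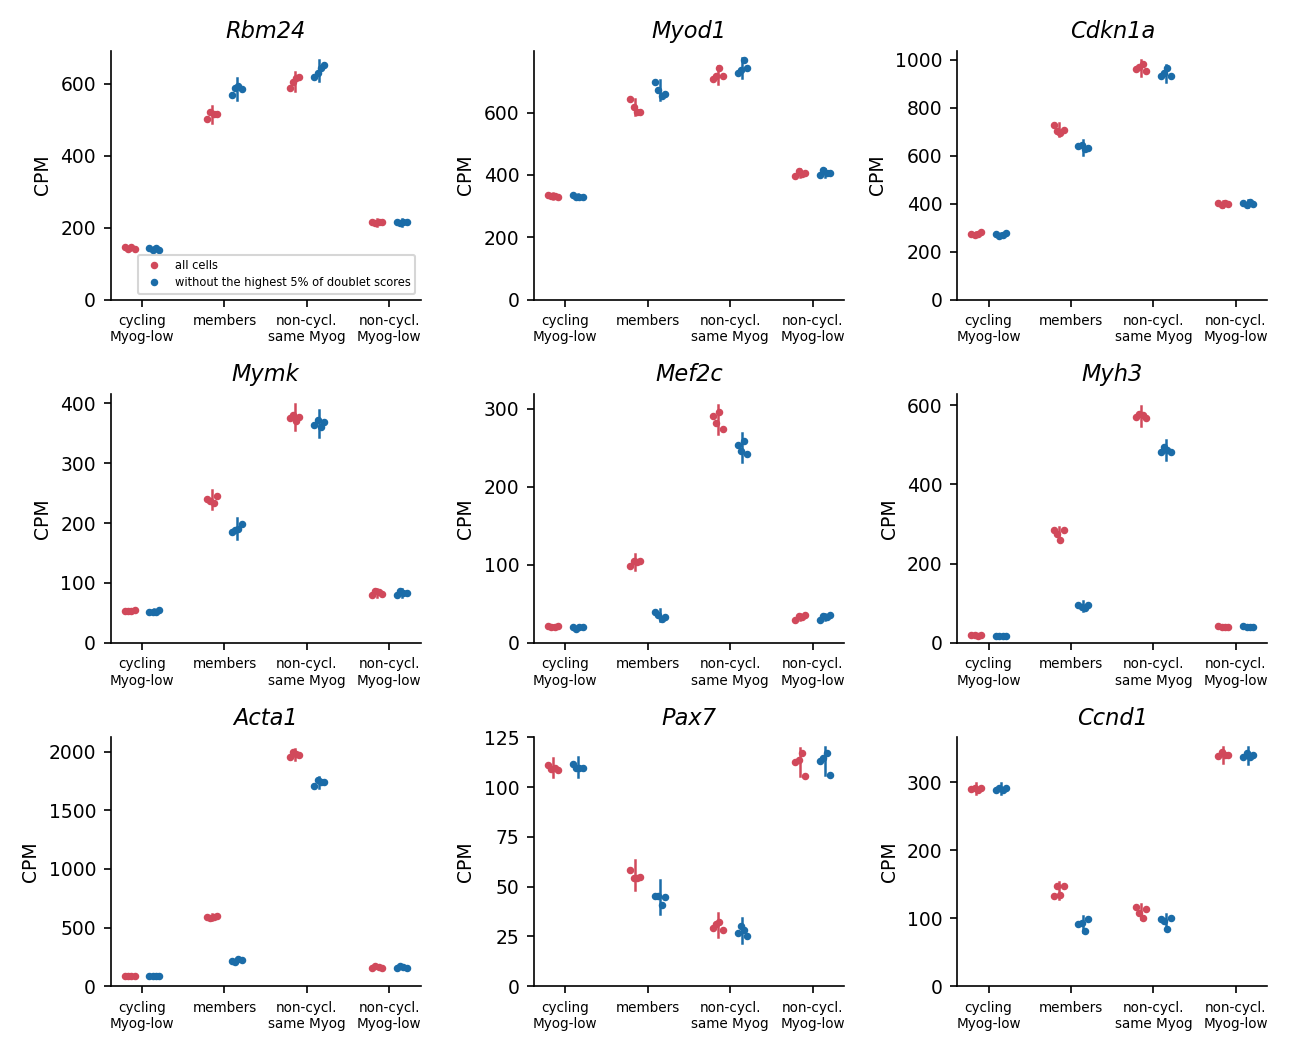
Levels of 9 genes in CPM on linear axes from 0, in cycling Myog-low cells, members, non-cycling Myog-intermediate and non-cycling Myog-low cells. Points are the 4 files and lines the 95% Poisson intervals, with red for all cells and blue without the highest 5% of doublet scores. Rbm24 and Cdkn1a in members change little between the colours, whereas Acta1 goes from 587 to 221 CPM.

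Among muscle transcription factors, Myod1, the master regulator whose reporter was sorted, was at 654 to 698 CPM in the 191 members, 330 CPM in cycling Myog-low cells and 744 CPM in non-cycling Myog-intermediate cells. Its log2 ratio over cycling Myog-low cells was 1.02 in the 191 and 0.89 in all members, so it passed 2-fold only without the highest doublet scores. Mef2a, a partner of myogenin at muscle genes, was at 485, 227 and 853 CPM in the same order. Mef2c, another member of that family, was at 103 CPM in all members but 34.6 CPM in the 191, against 19.6 CPM in cycling Myog-low and 250 CPM in non-cycling Myog-intermediate cells. Myf6, a late muscle regulator, was at 4.13 CPM and under the level for a call. Of 12 measured regulators, Myod1 and Mef2a were higher and Myf5 lower past 2-fold in the 191.

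Casz1, a zinc finger transcription factor, is described with Sox8 as the genes of the highest ratios in the 191. Both passed the limit of 10 CPM only through the members, where they are high, so their rank supports nothing. Casz1 was at 27.3 to 35.9 CPM in these members and 2.48 to 3.37 CPM in cycling Myog-low cells, 3.04 apart on the log2 scale (2.61 to 3.49). Non-cycling Myog-intermediate cells had 58.2 CPM, so members were again between the groups. Sox8, of the Sox transcription factor family, was at 21.8 to 26.5 CPM in the 191 against 2.11 CPM in cycling Myog-low and 18.6 CPM in non-cycling Myog-intermediate cells. For Sox8 the Myog-related difference was larger in cycling than in non-cycling cells, by 1.35 (0.53 to 2.17). Fgfr4, a receptor for fibroblast growth factors in the muscle lineage, was at 169 to 193 CPM in the 191, 88.1 CPM in cycling Myog-low and 126 CPM in non-cycling Myog-intermediate cells. It was above both groups in every file.

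Of the Notch pathway, a ligand and a target are described. Dll1, which encodes a Notch ligand, was at 29.7 to 37.7 CPM in the 191 members, 7.87 CPM in cycling Myog-low cells and 29.7 CPM in non-cycling Myog-intermediate cells. Hes1, a target of active Notch, was at 33.1 to 42.8 CPM in the 191, against 84.8 and 16.9 CPM. In the 191, Dll1 was thus above and Hes1 below cycling Myog-low cells in every file, and Hes1 was above its level in non-cycling cells of equal Myog. Of 12 measured Notch and Id genes, Dll1 was higher and Hes1 lower past 2-fold in the 191, 10 did not pass, and the median was 0.04. With all members Dll1 alone passed, of 13 measured, and Hes1 had a log2 ratio of −0.89. Id3, an inhibitor of muscle regulatory factors, was at 995 to 1009 CPM in the 191, below 1338 CPM in cycling Myog-low cells and above 800 CPM in non-cycling Myog-intermediate cells.

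Fusion and early differentiation genes were already present. Mymk, which encodes the fusion protein myomaker, was at 185 to 199 CPM in the 191 against 52.5 CPM in cycling Myog-low and 366 CPM in non-cycling Myog-intermediate cells. Mymx, which encodes its partner myomixer, was at 41.2 to 46.7 CPM against 7.21 and 60.6 CPM. Both lay between the groups in every file. Mymx had a UMI in 20.5% of 238 thinned members of any doublet score. The share was 3.03% in thinned cycling Myog-low cells, the lowest of any class, and 22% in thinned non-cycling Myog-intermediate cells. Unthinned shares were 41.5%, 8.48% and 35.0%, members first. Dok7, an adaptor of the neuromuscular synapse, and Smyd1, a methyltransferase and chaperone of myosin, averaged 47.9 and 121 CPM in the 191. Both were more than 2-fold above cycling Myog-low cells and had log2 ratios of −0.11 and −0.18 to non-cycling Myog-intermediate cells. Of 20 measured early differentiation genes, 9 were higher than in cycling Myog-low cells and all 20 were above 0 (median 0.84). With all members 12 of 22 were higher (median 1.24).

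Most measured stem and progenitor genes were lower, though still detected. Pax7, the stem cell transcription factor, was at 40.8 to 45.5 CPM in the 191, 110 CPM in cycling Myog-low and 27.6 CPM in non-cycling Myog-intermediate cells. Its log2 ratio over cycling Myog-low cells was −1.30 in the 191 and −0.97 in all members. Among 238 members of any doublet score, 21.4% had a Pax7 UMI at 5000 UMIs per cell. The share was 39.2% in cycling Myog-low and 12% in non-cycling Myog-intermediate cells (44.7%, 67.2% and 24.0% unthinned, members first). The lowest share of any class was 2.59%, in non-cycling cells of 1500 CPM of Myog or more, which bounds the share that free RNA gives. Myf5, an early muscle regulator, was at 41.9 CPM against 87.4 and 52.6 CPM. The secreted phosphoprotein gene Spp1 was at 137 to 143 CPM against 476 and 196 CPM, and the matrix protein gene Mgp at 187 CPM against 555 and 171 CPM. Members were thus nearer to non-cycling cells of equal Myog than to cycling Myog-low cells for Pax7, Myf5, Spp1 and Mgp. Of 11 measured genes in the list, 6 were lower in the 191 (Pax7, Myf5, Vcam1, Spp1, Mgp and Tm4sf1) and the median was −1.05. With all members 4 of 11 were lower and the median was −0.92.

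Of 12 measured growth factor signalling genes, Fgfr4 was higher and the early response genes Egr1 and Myc lower past 2-fold in the 191, with 6 above and 6 below 0 (median 0.05). With all members none of the 12 passed. The next 4 genes are among the 10 lowest ratios of the 191 and stand for no group. All 4 were under 10 CPM in the 191. They passed that level only through cycling Myog-low cells, where they are high, so their rank is a description only. Cdh6, a cadherin, had the lowest ratio and was at 1.62 CPM in the 191 against 19.2 CPM in cycling Myog-low cells. The receptor gene Egfr was at 3.99 against 20.1 CPM, the angiogenic ligand gene Angpt1 at 8.14 against 41.6 CPM, and Pgf, which encodes placental growth factor, at 8.44 against 38.5 CPM. For Egfr, Angpt1 and Pgf, non-cycling Myog-intermediate cells had 4.07, 7.12 and 8.56 CPM, with intervals that overlapped those of the members.

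Most cyclins and kinases did not pass 2-fold against cycling Myog-low cells. The D-type cyclin Ccnd1, which links growth signals to cycle entry, was at 80.4 to 98.1 CPM in the 191 and 140 CPM in all members. Cycling Myog-low cells had 290 CPM and non-cycling Myog-intermediate cells 94.6 CPM. Its partner kinase gene Cdk6 was at 21.1, 63.6 and 21.5 CPM in the 191, cycling Myog-low and non-cycling Myog-intermediate cells. For Ccnd1 and Cdk6 the intervals of the 191 and of the non-cycling cells overlapped. Cdk1, the mitotic kinase, was at 326 to 342 CPM in the 191, 286 CPM in cycling Myog-low cells and 28.5 CPM in non-cycling Myog-intermediate cells. Cyclin Ccna2 was at 156, 128 and 16.4 CPM. Of the E-type cyclins, Ccne2 was at 50.7, 51.5 and 6.82 CPM and Ccne1 at 36.7, 48.9 and 11.4 CPM. The mitotic kinase gene Aurkb was at 66.8, 81.5 and 1.48 CPM. Against cycling Myog-low cells these 5 genes lay on both sides and within 2-fold. E2f2, an activator of S-phase genes, was at 30.5 to 34.4 CPM in the 191 against 11.8 and 11.2 CPM, above both groups in every file. Of 12 measured E2F and mitotic transcription factors, E2f2 alone passed 2-fold against cycling Myog-low cells in the 191. The other 11 did not pass, and the list had 6 above and 6 below 0 (median 0.02). In the 191, of 15 cyclins and kinases, Ccnd1, Ccnd2 and Cdk6 were lower and none higher past 2-fold than in cycling Myog-low cells, and 12 did not pass. With all members Ccnd1 and Ccnd2 were lower, and Cdk6 had a log2 ratio of −0.86.

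Replication and mitosis genes were close to their level in cycling Myog-low cells, which the shared threshold of Mki67 and Top2a already favours. None of 28 DNA replication genes passed 2-fold, and 26 of the 28 were slightly lower (median −0.16 in the 191, −0.28 with all 28 lower in all members). Pcna, the replication clamp, was at 148 CPM in the 191, 173 CPM in cycling Myog-low cells and 34.3 CPM in non-cycling Myog-intermediate cells. The helicase subunit gene Mcm3 was at 122, 139 and 19.6 CPM. None of 26 mitosis genes passed 2-fold, and their median was 0.14 in the 191 and −0.01 in all members. After thinning to 5000 UMIs, 22.0% of 238 members were called in S phase and 73.6% in G2/M, from lists without Mki67 and Top2a. Cycling Myog-low cells had 29.8% in S and 67.6% in G2/M. The share in S differed by −7.82 points in members (−13.5 to −1.51), and the share in G2/M by 6.07 points with an interval from −0.51 to 12.1. Without thinning the differences were −8.83 points (−14.6 to −2.46) in S and 8.11 points (1.55 to 14.2) in G2/M, so the G2/M interval excludes 0 only at full depth. Cdkn1a was above cycling Myog-low cells within both phases: members had 624 CPM in S (40 cells) and 639 CPM in G2/M (132 cells), against 230 and 288 CPM. These members are a smaller set than the 238 of the phase shares.

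**Figure D3:**
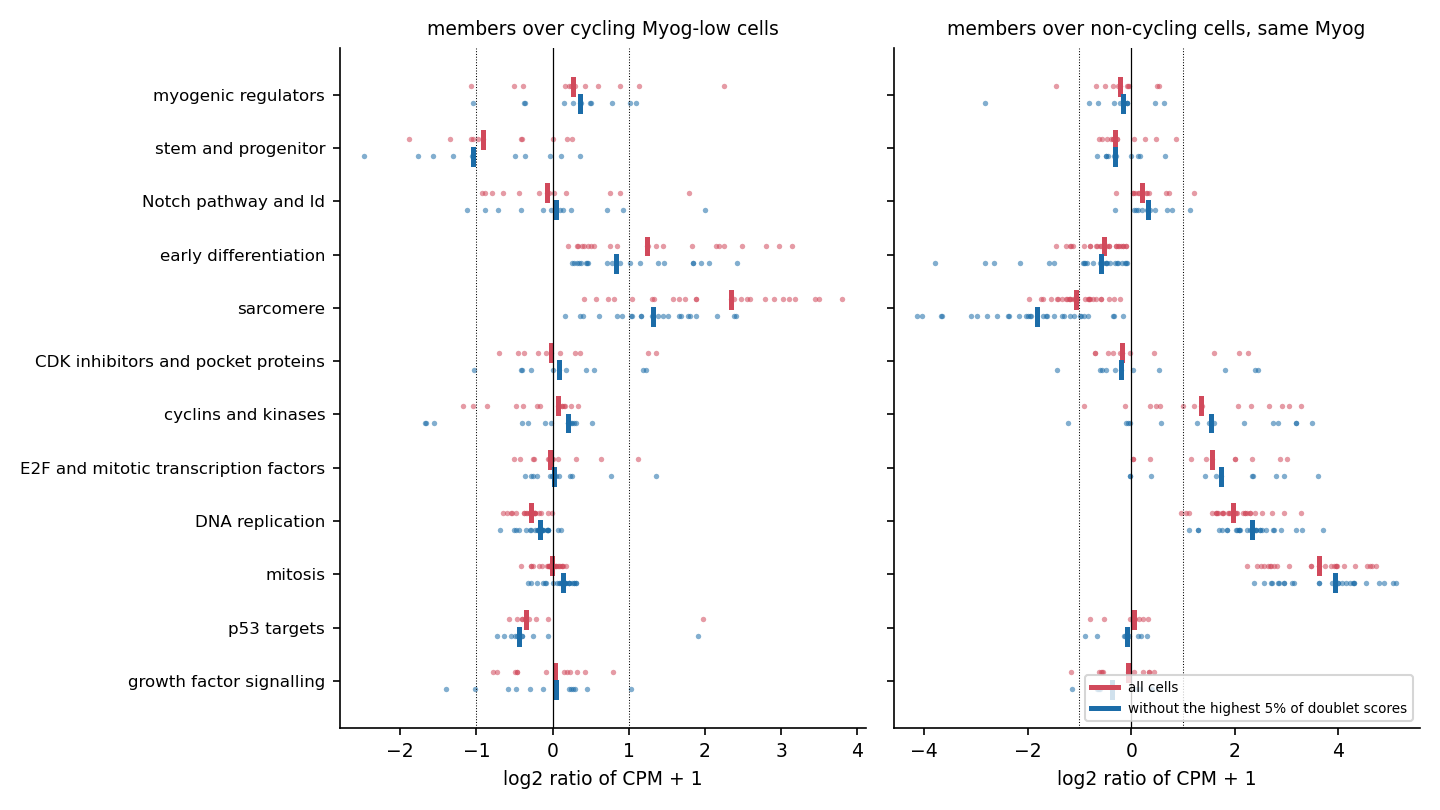
Log2 ratios of the genes of 12 lists, with points for genes and bars for list medians, in members over cycling Myog-low cells and over non-cycling Myog-intermediate cells. Red is all cells, blue is without the highest 5% of doublet scores, and dotted lines mark 2-fold. The sarcomere median goes from 2.34 to 1.31 in the first comparison and from −1.07 to −1.82 in the second.

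Against non-cycling cells of the same Myog range, members differed in the cycle genes that the rule builds on and in late muscle genes. Of 8134 genes, 434 (5.34%) were higher and 99 (1.22%) lower past 2-fold. The rule used this contrast for Mki67 and Top2a, and the counts are a description. Without the highest doublet scores, 481 of 8088 (5.95%) were higher and 181 (2.24%) lower, 422 and 94 of them called with all cells too. All 26 mitosis genes were higher (median 3.93 in the 191), as were all 28 replication genes (2.32), 10 of 15 cyclins and kinases and 8 of 11 measured E2F and mitotic transcription factors. With all cells, only 10 of the 26 and 22 of the 28 reached a mean of 10 CPM over non-cycling Myog-intermediate and Myog-low cells. Genes under 10 CPM in the non-cycling cells passed that level only through the members, where they are high, and are a description. The linker histone gene Hist1h1b was at 719 CPM in the 191 and 13 CPM in non-cycling cells. The spindle motor gene Kif11 was at 161 and 4.08 CPM, and the cohesin acetyltransferase gene Esco2 at 78.8 and 1.31 CPM. In cycling Myog-low cells these 3 were at 852, 137 and 77.4 CPM.

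The cycle promoters shown next carry TTTGAA, the letters of the cell cycle homology region through which many mitotic genes are silenced outside the cycle. Capitals mark it on either strand (TTCAAA on the other). The windows are Cdk1 at chr10:69352913-69353162 and Top2a at chr11:99024190-99024439, both on the − strand of GRCm38.p6.
Cdk1: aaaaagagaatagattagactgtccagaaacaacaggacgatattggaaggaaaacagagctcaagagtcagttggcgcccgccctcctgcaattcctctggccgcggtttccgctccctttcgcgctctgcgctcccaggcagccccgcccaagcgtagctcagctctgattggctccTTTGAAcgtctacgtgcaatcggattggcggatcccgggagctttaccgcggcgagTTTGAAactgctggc
Top2a: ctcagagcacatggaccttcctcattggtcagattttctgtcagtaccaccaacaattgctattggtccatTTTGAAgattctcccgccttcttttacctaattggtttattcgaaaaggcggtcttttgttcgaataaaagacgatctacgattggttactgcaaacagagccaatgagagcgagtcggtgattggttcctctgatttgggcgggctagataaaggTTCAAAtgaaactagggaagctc
Each held 2 matches, 15 and 23 bases before the start at the closest. TTTGAA was in 22.2% of 433 promoters of genes higher in the 191 than in non-cycling cells, against 16% of all 32851. CANNTG was in 73.4% of 192 promoters of the genes lower there, and in 48.7% of the 433 of genes higher there. Over all 32851 windows CANNTG was in 66.2%. Against cycling Myog-low cells it was in 69.1% of 207 promoters of higher genes and 56.8% of 148 of lower genes. Of the 181 genes lower in the 191 than in non-cycling Myog-intermediate cells, 135 had a promoter in the RefSeq table. These shares were not tested.

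Late muscle genes had a lower mean in members than in non-cycling Myog-intermediate cells. Acta1 was at 208 to 235 CPM in the 191 and 577 to 597 CPM in all members, against 1710 to 1756 CPM in the trimmed non-cycling cells and 84.4 CPM in cycling Myog-low cells. The log2 ratio to non-cycling cells was −2.97 (−3.10 to −2.84) in the 191 and −1.75 in all members. Myh3 was at 86.8 to 96.4 CPM in the 191 against 486 CPM, a log2 ratio of −2.38, or −1.05 in all members. Members stood below non-cycling Myog-intermediate cells in every file for both genes, and above cycling Myog-low cells, where Myh3 was at 16.7 CPM. Mylpf, a fast myosin light chain, was at 841 to 862 CPM in the 191 against 2613 CPM, and Ttn, which encodes the giant sarcomere scaffold titin, at 1545 to 1582 against 3534 CPM. Tcap, the titin cap, was at 4 against 61.8 CPM and passed the limit of 10 CPM only through the non-cycling cells. The slow troponin Tnnt1 was an exception in size, at 1091 against 1398 CPM. Of 30 measured sarcomere genes, 23 were lower past 2-fold and all 30 were below 0 (median −1.82). With all cells 18 were lower and the median was −1.07. Of 24 early differentiation genes, 6 were lower and all 24 were below 0 (median −0.58).

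For Myh3 and Actc1 the gap in means lay in a minority of non-cycling cells rather than in the middle of the distribution. The median cell had 24.4 CPM of Myh3 among the 191 and 24.3 CPM among the 259 non-cycling cells, yet the highest 10% of cells began at 143 CPM in the first and 825 CPM in the second. Myh3 reached 1000 CPM in 2 of 191 members (1.05%) and 24 of 259 non-cycling cells (9.27%). Acta1 had medians of 94.0 and 196 CPM, and reached 1000 CPM in 6 members (3.14%) and 69 non-cycling cells (26.6%). The cardiac actin gene Actc1 had medians of 36.1 and 38.0 CPM with the highest 10% of cells from 107 and 478 CPM. In contrast, Mylpf and Ttn differed at the median, at 645 against 1090 CPM and 1146 against 2137 CPM. Cdkn1a also differed at the median (440 against 639 CPM), and Rbm24 little (579 against 614 CPM). Within the 191, the 19 highest cells for each gene gave 64.7% of Myh3 and 56.9% of Acta1, but 18.3% of Rbm24 and 19.4% of Myod1. Among all 243, the 24 highest gave 78.7%, 71.1%, 19.1% and 19.6%. Myh3 and Acta1 were thus uneven among members, and Rbm24 and Myod1 were spread across nearly all of them.

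**Figure D4:**
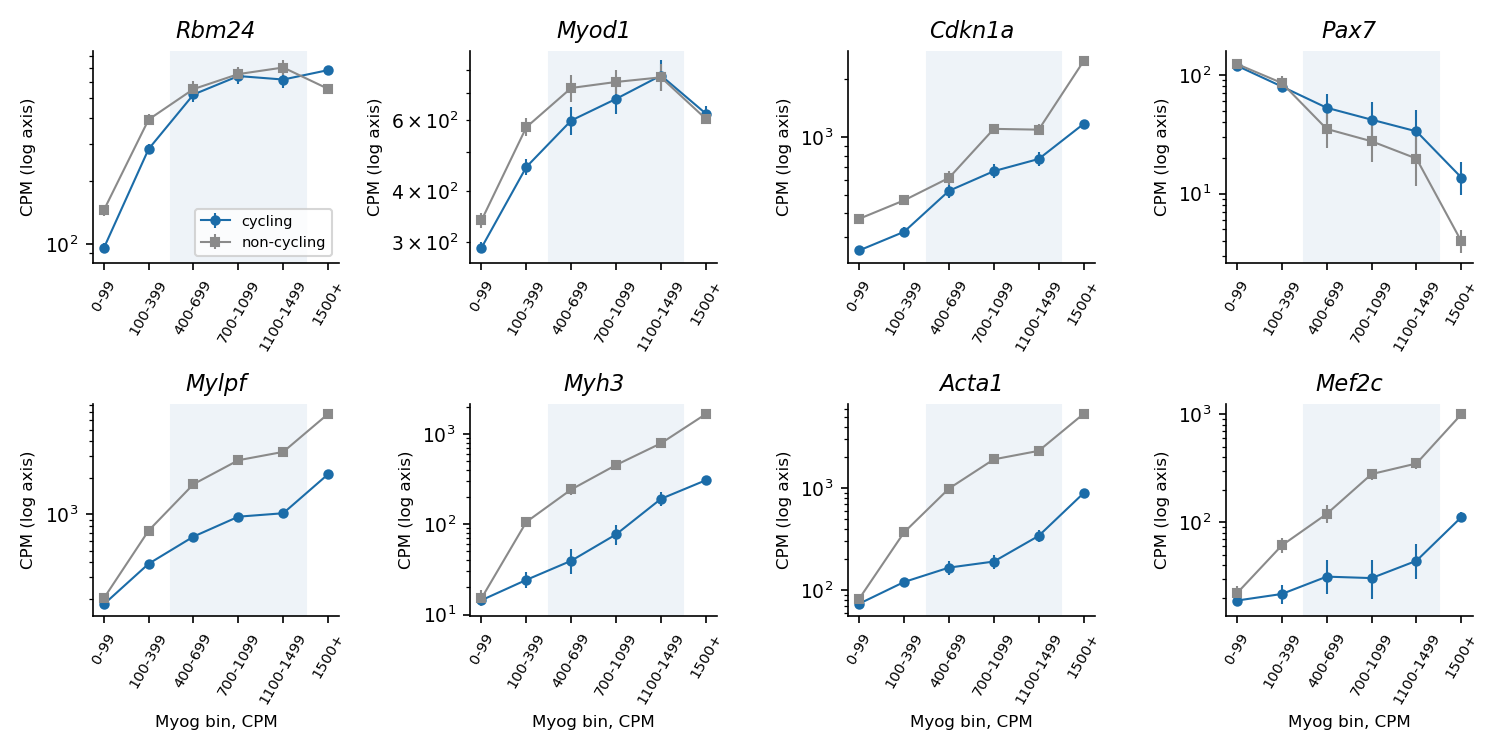
Levels of 8 genes in CPM (log axis) over 6 ranges of Myog, for cycling and non-cycling cells without the highest 5% of doublet scores. Bars are 95% Poisson intervals and shading marks the member range. Rbm24 in the member range is at 521 to 638 CPM in cycling and 553 to 701 CPM in non-cycling cells, while Acta1 of cycling cells stays under that of non-cycling cells from 100 CPM of Myog on.

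Within the window, levels differed along Myog. In members of 400 to under 700, 700 to under 1100 and 1100 to under 1500 CPM of Myog (76, 64 and 51 cells without the highest doublet scores), Cdkn1a was at 524, 664 and 769 CPM. Myh3 was at 39.4, 77.1 and 191 CPM and Acta1 at 166, 190 and 340 CPM. Pax7 went the other way, at 52.9, 42.0 and 33.5 CPM, with overlapping intervals between neighbours. Rbm24 was at 521, 638 and 614 CPM, the upper ranges overlapping, after 95.3 CPM in cycling cells under 100 CPM of Myog and 285 CPM in those of 100 to under 400. Most of its difference along Myog thus lay below 700 CPM of Myog. In non-cycling cells of the 3 ranges, Acta1 was at 988, 1910 and 2314 CPM and Myh3 at 242, 452 and 784 CPM. In cycling cells above the window Acta1 was at 891 CPM and Myh3 at 306 CPM, still under the non-cycling values of 5331 and 1654 CPM there. These ranges share the choice by Myog, so the order is a description.

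The difference between Myog ranges was then set side by side for cycling and non-cycling cells. It is the log2 ratio of intermediate over low Myog in cycling cells minus that in non-cycling cells. With all cells, 26 of 8294 genes (0.313%) were larger in cycling cells and 7 (0.0844%) smaller by at least 1 on this scale. Without the highest doublet scores, 24 of 8275 (0.29%) were larger and 57 (0.689%) smaller, and 17 of 28 measured sarcomere genes were among the smaller. The sarcomere median was −1.16 there and −0.36 with all cells, where none of 29 passed. That contrast thus changed when 52 members and the matching cells of the other groups were left out. The doublet scores come from these same counts and the 52 held more Acta1 and Myh3, so the trim acts on the values compared. In the trimmed cells the value was −2.03 (−2.20 to −1.87) for Acta1, −1.15 for Myh3, −2.10 for Mef2c and −1.01 for Mylpf. For Rbm24 it was 0.49 (0.36 to 0.62), for Fgfr4 0.84 (0.61 to 1.07), for Hes1 0.92 and for Pax7 0.69. All 28 replication genes were above 0 with none past 2-fold (median 0.35), beside a median over all genes of 0.04. With all cells, 23 of the 28 were above 0 and 5 below (median 0.16).

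**Figure D5:**
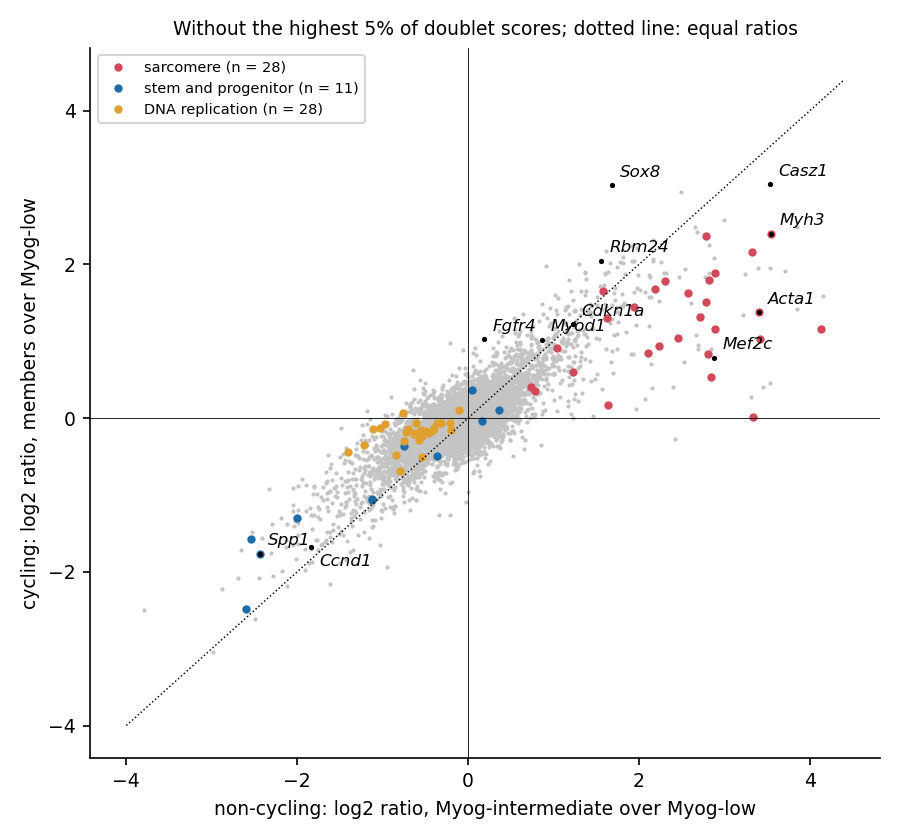
Each point is 1 of 8274 genes, with the log2 ratio of non-cycling Myog-intermediate over non-cycling Myog-low cells on the x axis and of members over cycling Myog-low cells on the y axis, without the highest 5% of doublet scores. Coloured points are 28 sarcomere, 11 stem and progenitor and 28 DNA replication genes. Most sarcomere genes lie below the diagonal, with differences of −2.03 for Acta1 and −1.15 for Myh3.

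The range of depth was narrowed as a further alternative, by keeping cells of 8000 to 20000 UMIs. This left 167 members with a median of 12877 UMIs, 1015 cycling Myog-low cells with 13025 and 197 non-cycling Myog-intermediate cells with 11480, so depth stayed unequal in the second comparison. Against cycling Myog-low cells 189 genes (2.3%) were higher and 127 (1.54%) lower. Against non-cycling Myog-intermediate cells 485 (5.98%) were higher and 158 (1.95%) lower. In the first comparison 17 of 23 sarcomere genes were higher with a median of 1.58. These values lay nearer to those of the 191 than to those of all members. Whether doublet score, UMI count or another property of the 52 cells sets the difference was not tested.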

How the data were processed

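Single cells were measured in 1 group of 4 labelled replicates. Each deposited matrix gives a whole UMI count for a gene in a cell barcode, before any normalization, from the authors' run of Cell Ranger, version 7.1.0 per the file headers and 3.1.0 per the submitters' processing notes. The notes name the builds mm10 and GRCm39 without a role. Gene coordinates are from GENCODE M21 on GRCm38, in which 32158 of 32285 identifiers (99.6%) were found. Intronic reads and the barcode filter are not given in the sources used here.

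Kept cells were barcodes in all 4 files with a mean of at least 1000 genes and under 10% mitochondrial UMIs. A further 467 kept cells under 1000 CPM of Malat1 were left out of the comparisons. Files total 62627341 to 68898900 UMIs. Counts were summed per file and class of cells, scaled to CPM and averaged, since shared barcodes leave 1 sample. The count model that independent replicates would allow was therefore not used. A gene was called when the mean log2 ratio of CPM + 1 was at least 1 or at most −1, with that sign in all 4 files. It needed a mean of at least 10 CPM over both groups, and Myog, Mki67, Top2a and Malat1 were left out. Intervals are exact 95% Poisson, Clopper-Pearson or conditional binomial intervals at the mean count of 1 file. Differences of log2 ratios have delta-method intervals. The call rule was run on simulated data for members over cycling Myog-low cells with 8272 genes. It called 50 of 50 genes raised 3-fold and 48 of 50 lowered 3-fold. It called 0 of 50 raised and 0 of 50 lowered 1.5-fold, and 0 of 8077 unchanged. Each simulated file was an independent Poisson draw from 1 pooled profile, without uneven cells or cells shared between files. The run therefore checks the code under counting error and cannot give the rate of false calls in these data.

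For shares of cells with a UMI and for phases, cells were thinned to 5000 UMIs per file. Phases and doublet scores came from scanpy 1.11.5 (expected doublet rate 5%), whose own doublet threshold marked 0 of 5481 cells and so did not work. Other tools were numpy 2.4.6, scipy 1.17.1 and pandas 2.3.3 under Python 3.11.15. Named genes are the 10 highest and 10 lowest ratios of each comparison and members of the gene lists. The same ranks without the highest doublet scores were added after the values were seen. The cells, lists and alternatives were chosen with earlier results of these data known. Alternatives were thresholds, scaling, pseudocount, depth, phase, split files, doublet scores and leaving out each file. Promoters are RefSeq windows on GRCm38.p6.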

Additional observations from a re-analysis of the deposited data

Results flagged for a closer look

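In 78 sets of 4 file values, 1 file stood apart by Dixon's criterion in 6 sets, where chance gives about 1 in 20. In members, Pax7 was at 58.47 CPM in replicate 1 against 54.13 to 54.73 CPM in the others, and the inhibitor gene Id3 at 988.1 CPM in replicate 1 against 971.7 to 973.4 CPM. The titin gene Ttn was at 1886 CPM in replicate 4 against 1908 to 1911 CPM. Aurkb, a mitotic kinase gene, was at 54.73 CPM in replicate 4 against 61.85 to 62.47 CPM. The median log2 ratio of the early differentiation list over non-cycling Myog-intermediate cells was −0.6326 in replicate 3 against −0.4944 to −0.4828. That of cyclins and kinases over cycling Myog-low cells was −0.09502 in replicate 1 against 0.02667 to 0.04889, a change of sign around 0. Since the files hold the same cells, these gaps are between files of 1 sample. None of 44 genes looked at had log2 ratios of intermediate over low Myog that were of 1 sign in every file of cycling cells and of the opposite sign in every file of non-cycling cells.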

How the results depend on the processing

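No paired analysis was possible because the labels give a single group. The number of members was 243 by the given rule, 202 with a cycling threshold of 300 CPM, 155 with Myog from 500 to under 1200 CPM, 191 without the highest 5% of doublet scores and 173 without the highest 10%, which was added after seeing the data. Against cycling Myog-low cells, 203 genes were higher and 66 lower. Genes of at least 1 CPM gave 363 and 166, and a 1.5-fold limit gave 444 and 345. The lower count was 143 without the highest 5% of doublet scores, 147 without the highest 10%, 127 in cells of 8000 to 20000 UMIs, 101 by means over cells, 194 in cells called S and 33 with a pseudocount of 5 CPM. Against non-cycling Myog-intermediate cells, 434 genes were higher and 99 lower. Genes of at least 1 CPM gave 689 and 235, and a 1.5-fold limit gave 895 and 426. The lower count was 181 without the highest 5% of doublet scores, 188 without the highest 10% and 158 in the UMI window. For the difference between cycling and non-cycling cells, 26 genes were larger and 7 smaller. The smaller count was 57 and 53 without the highest 5% and 10% of doublet scores, 24 and 13 with cells chosen in 1 pair of files and measured in the other, 17 by means over cells, 16 with Myog from 500 to under 1200 CPM, and 11 with limits of 2000 genes and 5% of mitochondrial UMIs per cell, with median-of-ratios scaling and with trimmed-mean scaling. The lower minimum level and the 1.5-fold limit admit more genes by construction, and the cause was not tested for the other settings.

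Leaving out each file gave 236 to 251 members, 203 to 206 and 67 to 75 genes against cycling Myog-low cells, 431 to 441 and 96 to 108 against non-cycling Myog-intermediate cells, and 27 to 31 and 8 to 10 for the difference. Shares in S and G2/M stayed within their intervals under every alternative run for them. Among single-gene values, 4269 stayed within their counting interval, 567 moved beyond it and none of the called values changed sign. Counting depth limits genes under 10 CPM in the 191 members, such as Cdh6, Tcap and Myf6. With 1 sample, variation between animals, cultures and sorts could not be measured.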
